A study of Mus musculus with 11 samples.

Results

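The genes of 3 ETS family transcription factors, Ets1, Fli1 and Elf1, were examined for binding by the ETS factors themselves and by Foxp3. The members were all binding positions and Foxp3 peaks inside 2 windows of mouse build mm9, one around Fli1 and Ets1 on chromosome 9 (32200000 to 32600000, 400 kb) and one around Elf1 on chromosome 14 (79860000 to 80000000, 140 kb). They numbered 1036 of the 1061984 entries in all lists. The windows were selected on the presence of Foxp3 peaks and ETS factor positions in them, seen in earlier results of these same lists, so the counts of peaks and positions describe them and are given without a test. No mm9 annotation was used here, and positions are therefore not assigned to exons, introns or promoters. In the RefSeq gene table, which is on GRCm38.p6, Fli1 precedes Ets1 on chromosome 9 with only the 2 noncoding genes Gm31871 and Gm31928 between them, and the protein-coding neighbours are Kcnj1 before Fli1 and Kirrel3 after Ets1. Elf1 lies between Wbp4 and Sugt1 on chromosome 14.

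Cells came from mice about 8 weeks old, from lymph nodes and spleen, and were sorted as CD4 T cells by a green fluorescent protein that reports Foxp3. Foxp3-positive regulatory T cells (Treg) were used for chromatin immunoprecipitation of Foxp3 (3 libraries, 2 of them technical repeats), Elf1, Ets1 and Cbfb (1 library each), and for 2 input libraries. Foxp3-negative CD4 T cells (CD4) were used for Elf1, Ets1 and Cbfb (1 library each). The labels name no genotype beyond the reporter, the reporter allele is not described in them, and nothing in binding data of this kind can check the sorted cell types against marker expression. The CD4 Cbfb library, which the labels mark as of low quality, and the inputs were not analysed here. Every list used thus stands for 1 library, except the Foxp3 list, which the authors combined from replicates, so no difference between cell types has a replicate check and no p-value is given.

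ETS proteins bind DNA through a conserved domain that reads a short purine-rich core, and many genes active in T cells carry such sites. Ets1 is needed for normal T cell and natural killer cell development, Fli1 is its close relative and acts in blood cell and platelet formation, and Elf1 belongs to another branch of the family that is expressed in lymphocytes. Foxp3 is the forkhead factor that defines Treg cells. Cbfb is the partner through which Runx proteins bind DNA more tightly.

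RefSeq promoter sequences (250 bases before to 50 bases after a transcription start, GRCm38.p6) were matched for 1 of the 3 genes. Elf1 had 2 such promoters, on the plus strand of chromosome 14, shown because Elf1 is both 1 of the 3 genes examined and one of the factors mapped. Capitals mark the ETS core GGAA, or TTCC where it lies on the other strand.
Elf1 promoter 1: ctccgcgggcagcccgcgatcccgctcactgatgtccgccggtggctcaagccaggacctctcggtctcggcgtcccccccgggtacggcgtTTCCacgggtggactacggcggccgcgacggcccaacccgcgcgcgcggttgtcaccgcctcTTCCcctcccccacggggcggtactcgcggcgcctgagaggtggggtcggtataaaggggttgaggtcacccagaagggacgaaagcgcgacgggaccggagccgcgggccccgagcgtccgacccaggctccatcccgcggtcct
Elf1 promoter 2: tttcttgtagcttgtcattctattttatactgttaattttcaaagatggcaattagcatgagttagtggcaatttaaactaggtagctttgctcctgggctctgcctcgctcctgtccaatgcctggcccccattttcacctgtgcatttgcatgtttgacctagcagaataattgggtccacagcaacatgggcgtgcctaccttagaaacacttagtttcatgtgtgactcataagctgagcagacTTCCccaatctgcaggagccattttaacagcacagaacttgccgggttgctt
The first promoter held 2 cores and had a G and C content of 73%. The second held 1 core and had a G and C content of 44.7%. The core occurs in 96% of all 32851 promoters of this table. Neither promoter held CCGGAAGT on either strand, an 8-base form of the ETS motif that contains the core and occurs in 3.89% of promoters, or the forkhead motif GTAAACA, which occurs in 3.65%. Where these bases lie on mm9 was not established, so they cannot be set against the positions below.

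The Fli1 and Ets1 window was crowded with binding of the ETS factors in both cell types and carried 17 of the 2886 Foxp3 peaks. Positions with a false discovery rate (FDR) of at most 0.01, the list used below unless another is named, numbered 117 for Treg Elf1, 72 for CD4 Elf1, 128 for Treg Ets1 and 110 for CD4 Ets1. Treg Cbfb had 44. Per 10 kb this was 2.93 positions for Treg Elf1 (95% Poisson interval 2.42 to 3.51), 1.80 for CD4 Elf1 (1.41 to 2.27), 3.20 for Treg Ets1 (2.67 to 3.80) and 2.75 for CD4 Ets1 (2.26 to 3.31), and 1.10 for Treg Cbfb (0.799 to 1.48). These intervals, like all others here, cover counting error only. Library depth is unknown.

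Relative to each list's own density over the genome, Ets1 stood highest of the 5 position lists. Its positions were 13.7 times as dense in the window as over all numbered chromosomes and X in Treg cells (11.4 to 16.3) and 17.3 times as dense in CD4 cells (14.2 to 20.9). Elf1 positions were 4.90 times as dense in Treg (4.05 to 5.87) and 8.88 times in CD4 (6.95 to 11.2). Cbfb positions were 2.39 times as dense (1.74 to 3.21), the lowest of the 5 libraries. When the genome was divided into 6586 windows of the same length from the start of each chromosome, as many Treg Ets1, CD4 Ets1 or CD4 Elf1 positions were found in 0% of them, as many Treg Elf1 positions in 0.0304% and as many Treg Cbfb positions in 0.213%. These windows were placed blindly, while the one described lies around the genes and was selected on its ETS positions and Foxp3 peaks. Nothing is therefore read from the ETS shares. The fullest of them for both Treg Ets1 (123 positions) and CD4 Ets1 (105) was the one from 32400001 to 32800000 on chromosome 9, which overlaps the Fli1 and Ets1 window. The next fullest held 106 Treg Ets1 positions on chromosome 8 and 93 CD4 Ets1 positions on chromosome 14.

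The order of the 2 factors within a cell type was the same at equal list length, while the order of the cell types was not. Of the 10000 top-scoring positions per library, the window held 59 for Treg Ets1, 40 for CD4 Ets1, 23 for Treg Elf1 and 15 for CD4 Elf1. Relative to the genome the Treg lists then stood higher, at 39.1 times for Ets1 and 15.2 times for Elf1, against 26.5 and 9.92 times for the CD4 lists. It held 0 of the 10000 for Treg Cbfb, although 44 Cbfb positions passed the FDR limit there. The highest-scoring Cbfb position of the window, at 32425639, ranked 12982 of 121632, tied with others so that 11.2% of the list scored as high, and had a fold enrichment of 4.70 (lower bound 1.02). Fold enrichment, its lower bound and the score are the authors' values, the fold being their estimate of signal over a control that the sources used here do not name.

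The Elf1 window had the same order of densities relative to the genome, at lower counts. It held 35 Treg Elf1, 24 CD4 Elf1, 29 Treg Ets1, 28 CD4 Ets1 and 11 Treg Cbfb positions, and 2 Foxp3 peaks. Density relative to the genome was 8.87 times for Treg Ets1 (5.94 to 12.7), 12.6 times for CD4 Ets1 (8.36 to 18.2), 4.19 times for Treg Elf1 (2.92 to 5.83) and 8.46 times for CD4 Elf1 (5.42 to 12.6). The interval for Treg Cbfb, 1.71 times (0.852 to 3.05), included the genome's density. Of the 18840 windows of this length, 0.218% held as many Treg Ets1 positions, 0.292% as many CD4 Ets1, 0.271% as many Treg Elf1, 0.287% as many CD4 Elf1 and 13.1% as many Treg Cbfb. The Elf1 window too was selected on its ETS positions, so the ETS shares are described only. Among the 10000 highest scores this window held only 3 Treg Elf1, 4 CD4 Elf1, 4 Treg Ets1, 6 CD4 Ets1 and 3 Treg Cbfb positions, too few to order the lists.

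**Figure D1:**
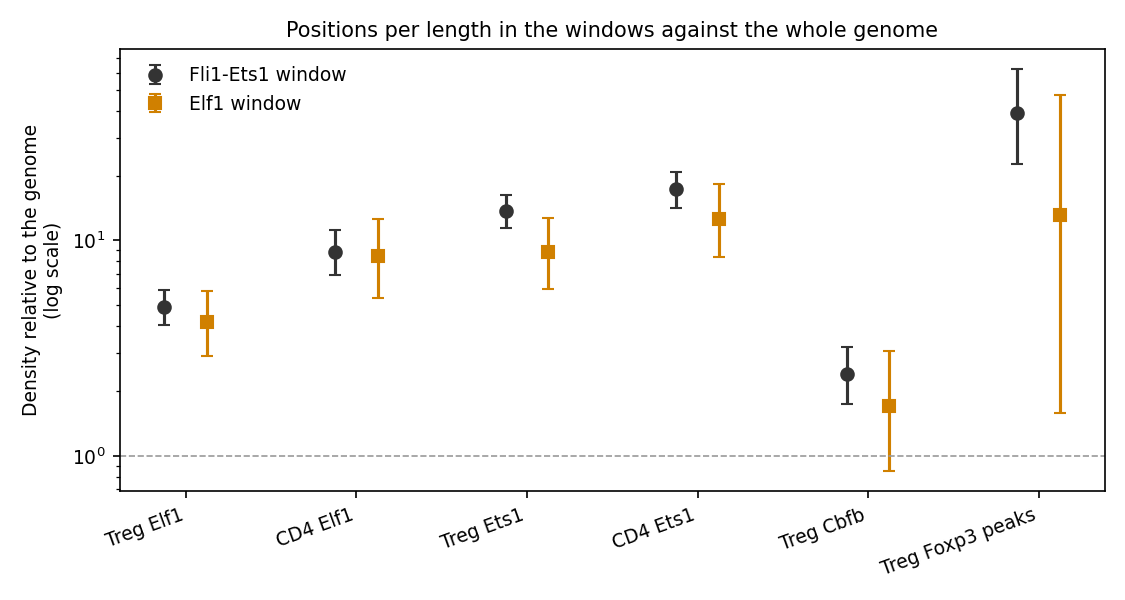
Density of positions (FDR at most 0.01) and of Foxp3 peaks in the Fli1-Ets1 window (circles) and the Elf1 window (squares), divided by the density of the same list over the genome, on a log axis; bars are 95% Poisson intervals and the dashed line marks the genome's density. Each Ets1 value lies above the Elf1 value of the same cell type and window, with intervals that overlap only for CD4 cells in the Elf1 window, and only the Cbfb interval of the Elf1 window reaches the line.

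Inside the Fli1 and Ets1 window the Ets1 positions were concentrated in one stretch. In bins of 20 kb, the median was 2 Treg Ets1 positions and 2 CD4 Ets1 positions per bin, while the fullest bin, from 32500001 to 32520000, held 36 and 27. As many were found in 1 of 131932 bins over the genome for Treg Ets1 (0.000758%), which is this bin itself. For CD4 Ets1 it was 4 bins (0.00303%), this bin among them. The fullest bin of the other lists held 19 Treg Elf1 positions (0.000758% of bins held as many, which is that bin alone), 10 CD4 Elf1 (0.025%) and 6 Treg Cbfb (0.152%). The next 3 bins held 29, 18 and 16 Treg Ets1 positions and 25, 16 and 11 CD4 Ets1 positions. These 4 bins, 80 kb in all and chosen because they held the most Treg Ets1 positions, contained 99 of the 128 Treg Ets1 positions (77.3%) and 79 of the 110 CD4 Ets1 positions (71.8%). They contained 52 of 117 Treg Elf1 positions (44.4%) and 27 of 72 CD4 Elf1 positions (37.5%). The genome was also divided into 32972 stretches of 80 kb, which do not include this one. Of them 0% held as many Treg Ets1 positions, 0.00303% as many CD4 Ets1, 0% as many Treg Elf1 and 0.0121% as many CD4 Elf1. The stretch was picked for its Treg Ets1 positions, in a window itself selected on ETS positions, so these shares follow largely from that choice and nothing is read from them. The stretch lies at the higher coordinates of the window, the side on which Ets1 follows Fli1 in the gene order.

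The run of Ets1 positions had nearly the same limits in both cell types. In Treg cells no Ets1 position lay in the 34.0 kb before 32503222, and the last one of the run was at 32568385, after which the window held none. In CD4 cells the run began at 32502837, after 22.7 kb without a position, and ended at 32567767. The runs thus spanned 65.2 kb in Treg and 64.9 kb in CD4. Neighbouring Ets1 positions were a median of 494 bp apart in Treg and 563 bp apart in CD4, against 5727 and 3379 bp in the 300 kb below the stretch. In no list did 2 positions lie closer than 199 bp, so the spacing has a floor. The Elf1 run in Treg cells covered a similar range, from 32504711 to 32565212, at a median spacing of 887 bp. CD4 Elf1 had 10, 8, 6 and 3 positions in the 4 bins, against a median of 2.5 per bin in the window. Its positions had no such clear limits, with only 1.90 kb empty before the first of the stretch and a span of 77.5 kb. Their median spacing was 2260 bp, against 2305 bp below the stretch.

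Median fold enrichment in the dense stretch was 5.99 for Treg Ets1, 6.76 for CD4 Ets1, 6.83 for Treg Elf1 and 6.07 for CD4 Elf1, against list medians of 3.71, 4.61, 5.71 and 4.97. Of the 99 Treg Ets1 positions 47 were among the 10000 highest scores of that library, and of the 79 CD4 Ets1 positions 28 were. The highest Ets1 scores of the stretch were at its lower edge, for Treg Ets1 at 32503678 (22.0-fold, lower bound 8.79, rank 598) and for CD4 Ets1 at 32503717 (16.8-fold, lower bound 6.83, rank 818), 39 bp apart.

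**Figure D2:**
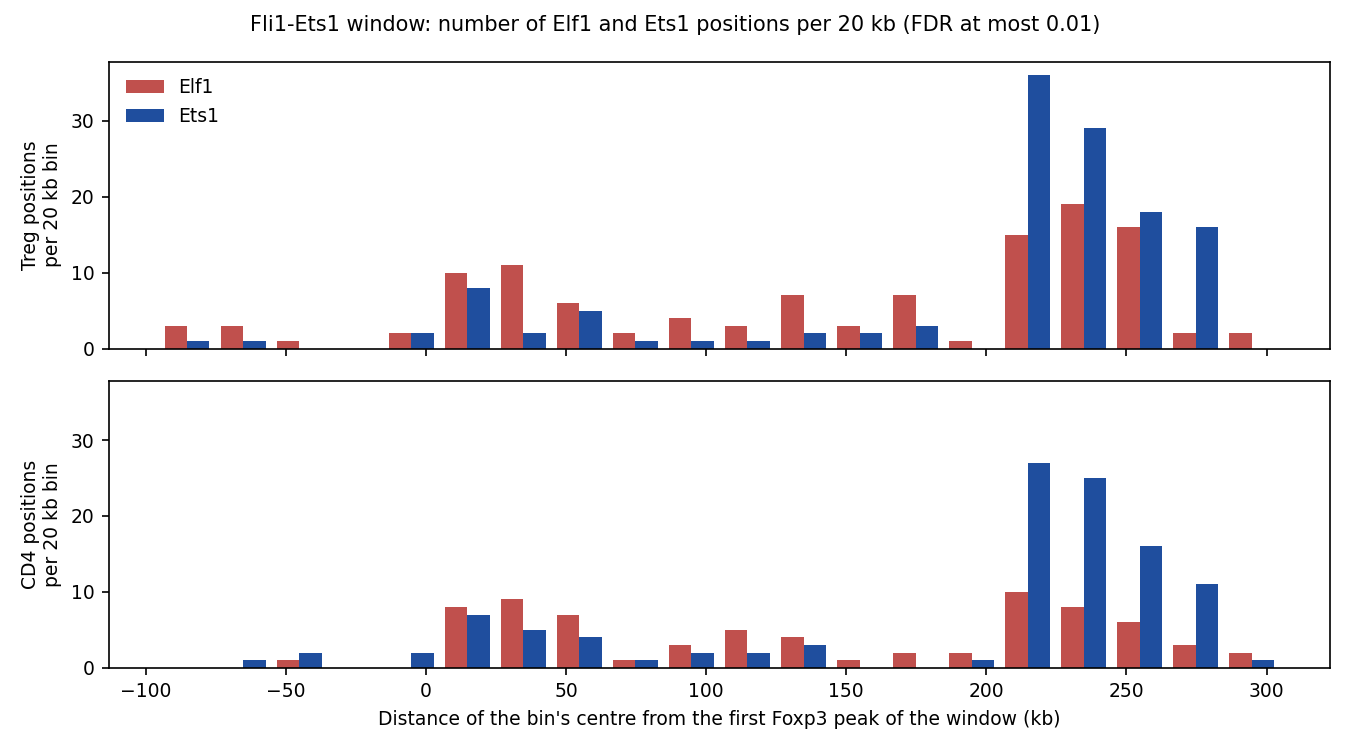
Number of Elf1 (red) and Ets1 (blue) positions at an FDR of at most 0.01 in each 20 kb bin of the Fli1-Ets1 window, for Treg (top) and CD4 cells (bottom), by distance of the bin's centre from the first Foxp3 peak in kb. Ets1 bars reach 36 in Treg and 27 in CD4 in the first bin of the dense stretch, while Elf1 has the higher or an equal bar in most bins before it.

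The lower 300 kb of the 400 kb window, on the side where Fli1 comes first, carried most of the Foxp3 peaks. This part is also most of the window's length, so nothing is read from where the peaks lay. The lower part held 15 of the 17 peaks, 2 of which overlap, against 2 in the dense 80 kb. At the FDR limit 29 Treg Ets1 and 30 CD4 Ets1 positions lay there, and Elf1 had 63 in Treg and 43 in CD4. The Elf1 lists are longer, 157731 against 61761 positions in Treg and 53580 against 42040 in CD4. Among the 10000 highest scores of each library this part held 12 Ets1 and 10 Elf1 positions in Treg, and 12 and 8 in CD4. The order of the 2 factors thus depended on list length. The first Foxp3 peak started at 32295128 and the last ended at 32539706. The nearest Foxp3 peaks outside the window were 1091 kb below it and 118 kb above it. Foxp3 peaks were 38.9 times as dense in the window as over the genome (22.7 to 62.3). Of the windows of the same length 0% held 17 or more, and the fullest held 14, on chromosome 6. These windows cut the locus, with 12 of its peaks in the one from 32000001 to 32400000. The window described was selected on its Foxp3 peaks, so nothing is read from this share.

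**Figure D3:**
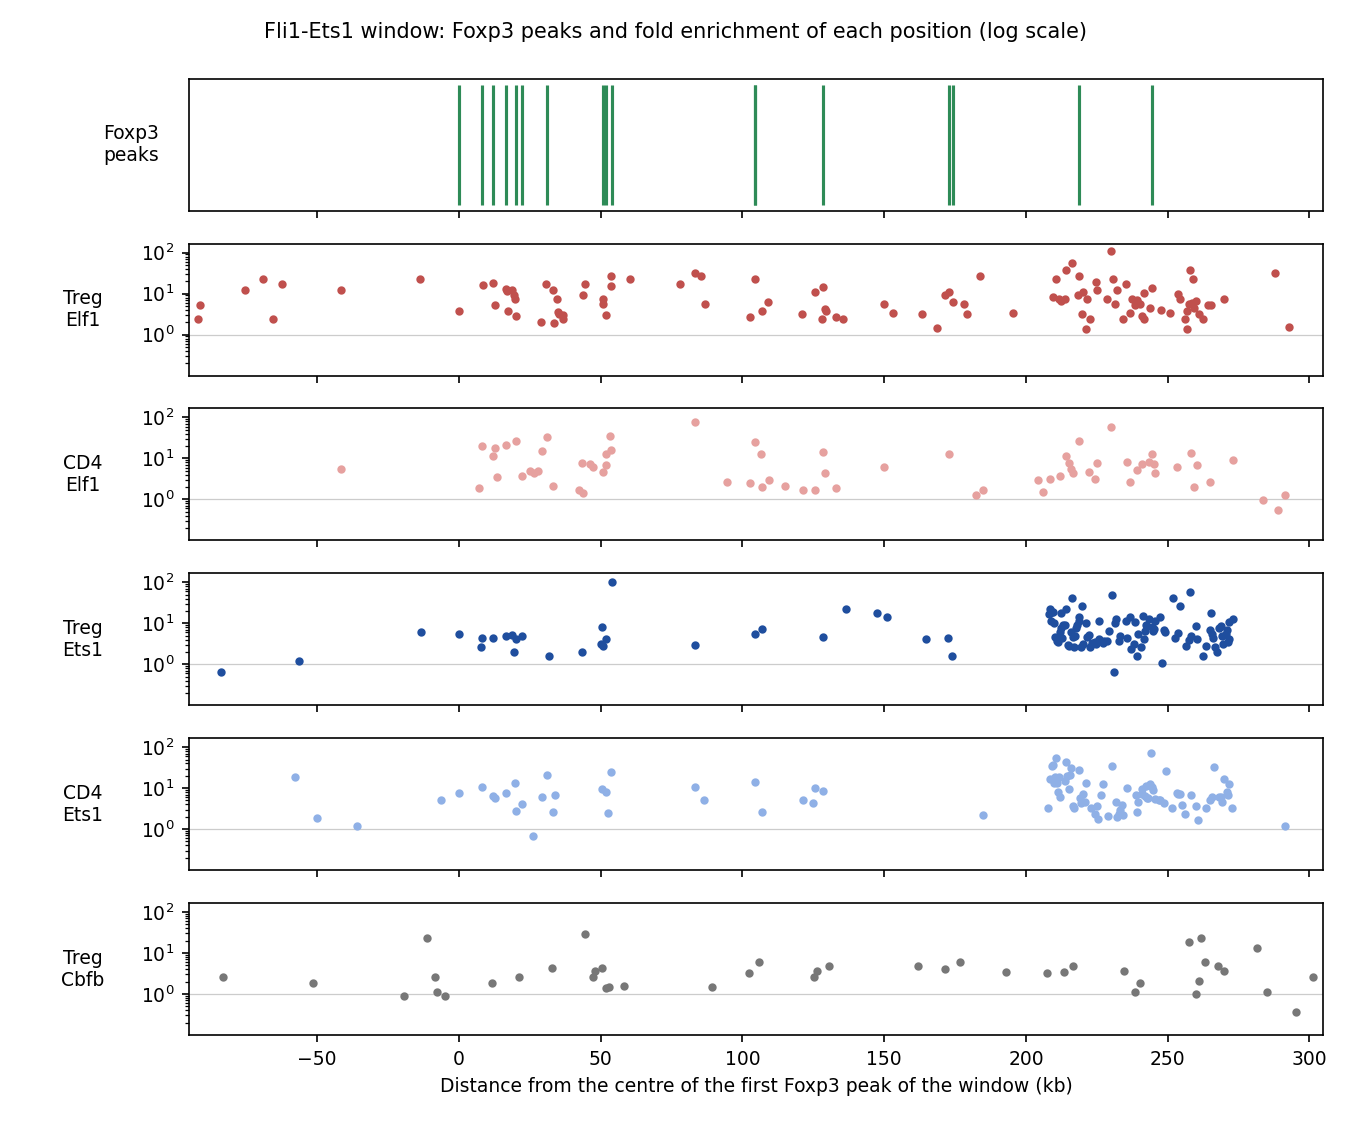
Foxp3 peaks (green lines) and the fold enrichment of each Elf1, Ets1 and Cbfb position at an FDR of at most 0.01 (points, log axis, grey line at 1) across the Fli1-Ets1 window, by distance in kb from the centre of the first Foxp3 peak. Of the 17 Foxp3 peaks 15 lie before the dense stretch of Ets1 positions that begins about 208 kb from the first peak. The part before it makes up 300 of the window's 400 kb.

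At the FDR limit most Foxp3 peaks of the 2 windows sat beside ETS positions, at shares like those over all Foxp3 peaks. Within 200 bp, 18 of the 19 peaks had a Treg Elf1 position, 18 a Treg Ets1 position, 17 a CD4 Elf1 position and 17 a CD4 Ets1 position. Over all 2886 Foxp3 peaks these shares were 85.2%, 83.5%, 88.9% and 89%, inside the Clopper-Pearson intervals of the windows (74.0 to 99.9% for each Treg list and 66.9 to 98.7% for each CD4 list). All 4 lists were present at 14 of the 19 peaks, with 66.1% over all peaks. With the 10000 highest scores of each library fewer peaks had a position, 10 of 19 for Treg Ets1 (52.6%, against 61.0% of all peaks), 9 for CD4 Elf1 (47.4%, against 59.2%), 13 for Treg Elf1 (68.4%, against 54.4%) and 15 for CD4 Ets1 (78.9%, against 70.9%). Treg Cbfb was present at 2 of the 19 (10.5%, 1.30 to 33.1%), against 28.1% over all Foxp3 peaks, a share inside the interval. The 19 peaks form 18 places, because the 2 peaks that start at 32399526 and 32399684 overlap and share their positions.

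The first 7 Foxp3 peaks of the chromosome 9 window lay between 32295128 and 32326226, each 2104 to 8391 bp from the next. At the first (32295128 to 32295328) fold enrichment was 5.42 for Treg Ets1, 7.46 for CD4 Ets1 and 3.84 for Treg Elf1. CD4 Elf1 had only a position with an FDR of 0.12 there. In Treg cells Ets1 had the higher fold of the 2 factors at this peak, and the CD4 Ets1 position ranked 950 in its list. At the second (32303372 to 32303572) the values were 15.7 for Treg Elf1, 20.1 for CD4 Elf1, 4.39 for Treg Ets1 and 10.4 for CD4 Ets1. At the third (32307134 to 32307334) they were 17.8, 11.6, 4.28 and 6.42 in the same order, with a Cbfb position of 1.87-fold, whose lower bound was 0.26. Elf1 had the higher fold enrichment of the 2 factors at both peaks, in both cell types. Over all Foxp3 peaks with a position, the median fold was also higher for Elf1. It was 10.8 against 5.99 for Ets1 in Treg and 11.9 against 8.98 in CD4. Nothing is therefore read from the order of the factors at single peaks.

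At the fourth peak (32311764 to 32311964) fold enrichment was 13.2 for Treg Elf1, 20.9 for CD4 Elf1, 4.85 for Treg Ets1 and 7.53 for CD4 Ets1. At the fifth (32315131 to 32315331) it was 7.34 for Treg Elf1 (lower bound 2.00) and 27.1 for CD4 Elf1 (7.78), with 4.22 for Treg Ets1 and 2.76 for CD4 Ets1. The sixth (32317435 to 32317635) had no Treg Elf1 position of any FDR within 200 bp, and low values in the other lists, 3.76 for CD4 Elf1, 4.85 for Treg Ets1 and 4.08 for CD4 Ets1. Its CD4 Elf1 position at 32317520 was also the highest-scoring one of the window without any Treg Elf1 position within 1 kb. The seventh (32326026 to 32326226) had 17.1 for Treg Elf1, 32.6 for CD4 Elf1 and 21.4 for CD4 Ets1, while the Treg Ets1 position there had an FDR of 0.047 and a fold of 1.11. Of these 7 peaks, 4 therefore had all 4 ETS lists.

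A further 3 Foxp3 peaks stood close together, from 32345837 to 32349152, and all had the 4 ETS lists. The tenth peak (32348952 to 32349152) carried the highest-scoring Treg Ets1 position of the window, at 32349035, 17 bp from that peak's midpoint. Its fold enrichment was 102 (lower bound 18.5) and its rank 279 of 61761, so that 0.452% of the list scored as high. CD4 Ets1 had 24.7 (7.22) at 32349015, Treg Elf1 15.5 (3.86) and CD4 Elf1 16.0 (4.33). The 2 peaks before it had lower values, with Treg values of 5.71 and 2.99 for Elf1 and 2.72 and 4.22 for Ets1, and CD4 values of 4.60 and 12.9 for Elf1 and 9.54 and 7.96 for Ets1. The second of the 3 also had a Cbfb position, of 1.38-fold.

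The overlapping Foxp3 peaks from 32399526 to 32399884 had the highest Elf1 scores of either cell type among the Foxp3 peaks of the window. Treg Elf1 was 22.0-fold (lower bound 8.66, rank 553) at 32399709 and CD4 Elf1 25.3-fold (10.3, rank 3232) at 32399717, 8 bp apart. Ets1 was 5.42-fold in Treg (1.74) and 13.8-fold in CD4 (4.85). At the peak from 32423548 to 32423748 Elf1 had nearly the same value in both cell types, 14.2-fold in each, and Ets1 had 4.66 in Treg and 8.50 in CD4.

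The pair of Foxp3 peaks at 32467820 and 32469360 lacked CD4 Ets1 positions at the FDR limit. At the first, Elf1 had 10.6-fold enrichment in Treg and 12.7 in CD4, and Ets1 4.39 in Treg, but the CD4 Ets1 position did not pass (FDR 0.037, 6.07-fold). At the second, Treg Elf1 had 6.21-fold (2.62) and Treg Ets1 1.55-fold (0.311). CD4 Elf1 had a position with an FDR of 0.094 and 1.05-fold, and CD4 Ets1 had none of any FDR within 200 bp. This was the one peak of the 19 with no CD4 position at the FDR limit. Inside the dense stretch, the peak from 32513845 to 32514045 had 26.9-fold Treg Elf1, 27.1-fold CD4 Elf1, 11.1-fold Treg Ets1 and 27.9-fold CD4 Ets1. The last peak, from 32539506 to 32539706, had 13.9, 12.5, 8.27 and 71.6 (lower bound 13.1) in that order.

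Both Foxp3 peaks of the Elf1 window had all 4 ETS lists and no Cbfb position. The first, from 79921690 to 79921890, had 16.4-fold Treg Elf1 (lower bound 6.27) and 7.81-fold CD4 Elf1 (2.83), and 3.14-fold Treg Ets1 (0.812) and 11.3-fold CD4 Ets1 (4.45). The second, from 79937282 to 79937482, had 9.44-fold Treg Elf1 (3.30) and 13.6-fold CD4 Elf1 (4.59), and 37.9-fold Treg Ets1 (6.18) and 26.5-fold CD4 Ets1 (9.67). The CD4 Ets1 position of the second peak, at 79937413, had the highest score of its library in the window and rank 793 of 42040, reached by 1.89% of the list. In Treg cells Elf1 had the higher fold of the 2 factors at the first peak and Ets1 at the second. In CD4 cells Ets1 had the higher fold at both. The folds come from different libraries, so these orders are described only. As many as 2 Foxp3 peaks were found in 3.29% of windows of this length. The window described was selected on its Foxp3 peaks, so nothing is read from that share. The nearest other Foxp3 peaks lay 923 kb below and 7137 kb above the window.

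**Figure D4:**
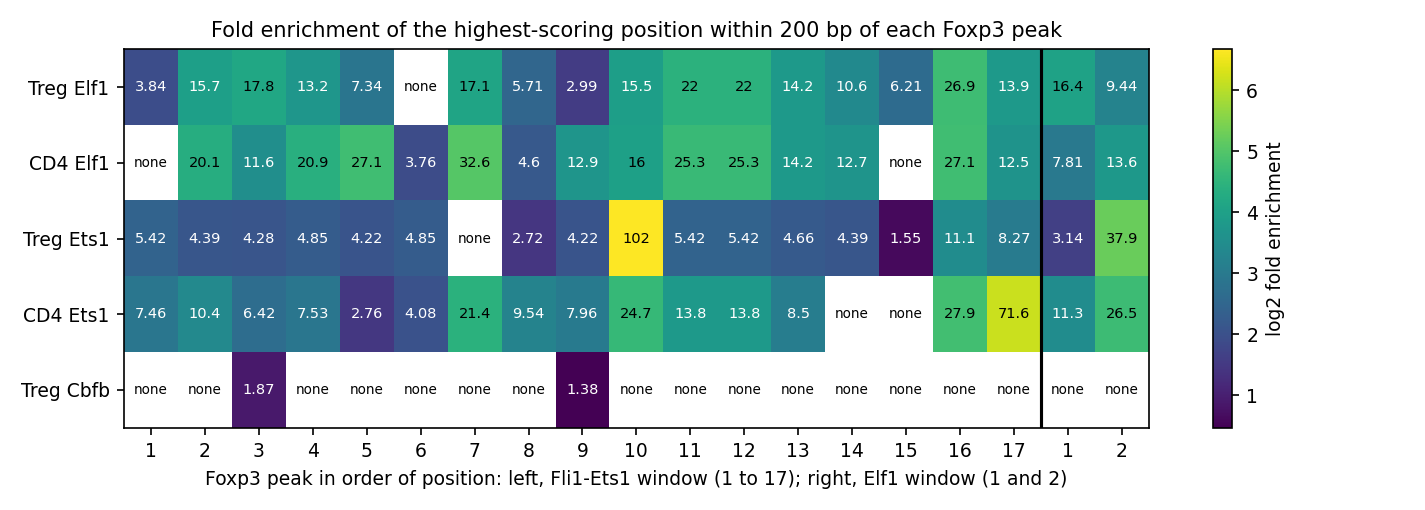
Fold enrichment, as numbers and as log2 colour, of the highest-scoring position at an FDR of at most 0.01 within 200 bp of each of the 17 Foxp3 peaks of the Fli1-Ets1 window (left of the line) and the 2 of the Elf1 window (right), by library; white cells with "none" had no such position. The Cbfb row is filled at 2 peaks, the Elf1 and Ets1 rows at 17 or 18 of 19, and peaks 11 and 12 overlap and share values.

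Fold enrichment at these peaks was more often lower in Treg than in CD4 cells for both factors, as over all Foxp3 peaks. For Ets1, 12 of the 16 peaks with a position in both cell types had the lower fold enrichment in Treg, with a median log2 difference, Treg minus CD4, of -0.89 (range -3.11 to 2.05). Over all Foxp3 peaks with both, 71.3% were lower in Treg and the median was -0.53. For Elf1, 12 of 16 were lower in Treg, with a median of -0.20 (range -2.11 to 1.07), and over all Foxp3 peaks 60% were lower and the median was -0.21. The overlapping peaks count as 2 of the 16 here. Both counts of 12 lie near the genome-wide shares, and the fold values come from libraries of unknown depth and control, so the differences describe the libraries.

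Some of the highest-scoring ETS positions at these loci had no Foxp3 peak. By score, the first for 3 of the 4 ETS lists lay on chromosome 9 at 32378370 to 32378421, 21105 bp from the nearest Foxp3 peak, and had all 4 ETS lists within 51 bp. CD4 Elf1 had 76.4-fold enrichment there (lower bound 35.1) and rank 43 of 53580, Treg Elf1 31.8-fold (14.1) and rank 203 of 157731, CD4 Ets1 10.7-fold (4.60) and rank 478 of 42040, and Treg Ets1 2.89-fold (0.849) and rank 4301. The 3 lists were both Elf1 lists and CD4 Ets1. By fold the order differed, since the highest fold of the window was 110.1 for Treg Elf1, in the dense stretch, 71.6 for CD4 Ets1, at the last Foxp3 peak, and 102 for Treg Ets1, at the tenth. Only CD4 Elf1 had its highest fold at this site, and 1.09% of that list had a fold as high. Scores as high or higher were reached by 0.0803% of CD4 Elf1, 0.129% of Treg Elf1 and 1.14% of CD4 Ets1 positions. In the Elf1 window the highest-scoring Treg Ets1 position belonged to a site at 79881475 to 79881591, 40099 bp from a Foxp3 peak, with 16.6-fold Treg Ets1 (rank 690, reached by 1.12% of the list) and 27.1-fold CD4 Ets1 (rank 2636). Its Elf1 positions ranked low, CD4 Elf1 at 12.7-fold (lower bound 3.30) with rank 17363 of 53580 and Treg Elf1 at 7.34-fold (1.40) with rank 138922 of 157731. There Ets1 had the higher fold of the 2 factors in both cell types, whereas Elf1 had at the chromosome 9 site. The folds come from different libraries of unknown depth and control, so these orders are described only.

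At the upper end of the Elf1 window, the highest Elf1 scores of both cell types lay 26 bp apart, 49983 and 50009 bp from a Foxp3 peak. Treg Elf1 had 9.97-fold enrichment at 79987465 (lower bound 4.55, rank 2724, reached by 1.73% of the list) and CD4 Elf1 12.1-fold at 79987491 (5.84, rank 3422, reached by 6.39%). A site at 79930136, singled out after its values were seen, had the 4 ETS positions within 3 bp but low values, from 0.816-fold in Treg Elf1 to 4.99-fold in CD4 Ets1. The Treg Elf1 value (lower bound 0.0527) was below the control, so a place in all 4 lists does not require enrichment in each. The highest Cbfb score of this window was at 79950065, 6.79-fold (1.75), with rank 825 of 121632 (0.678%), 12583 bp from a Foxp3 peak. This place depended on the score, since the window's highest Cbfb position was reached by 13.2% of the list when ranked by fold and by 14.2% when ranked by the lower bound.

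**Figure D5:**
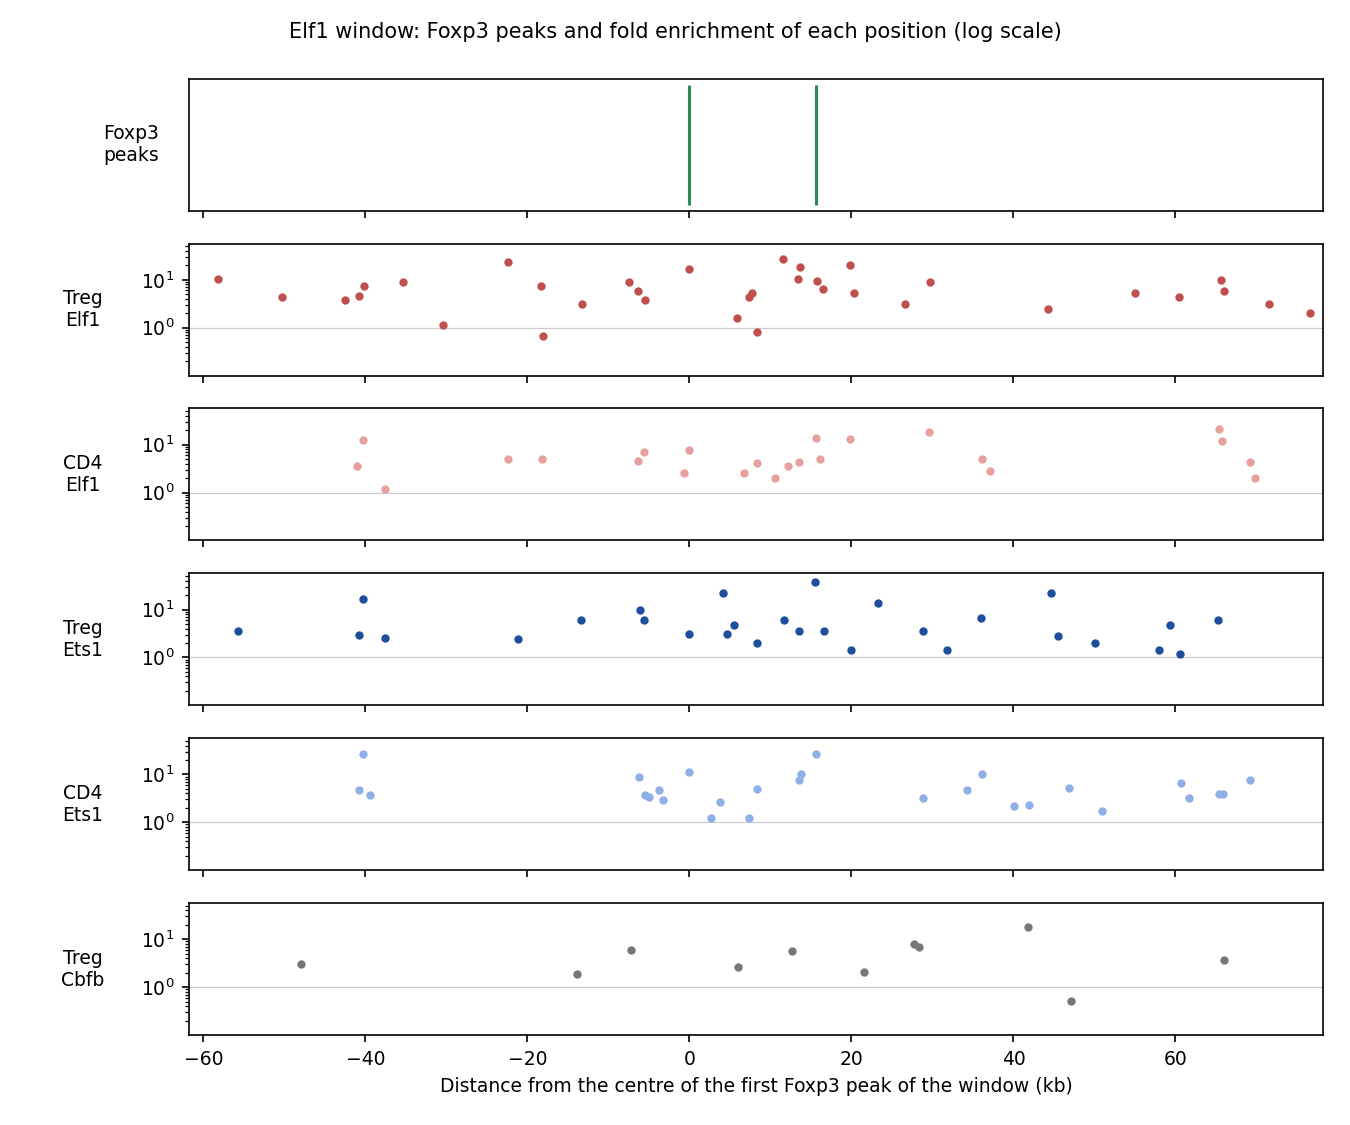
Foxp3 peaks (green lines) and the fold enrichment of each Elf1, Ets1 and Cbfb position at an FDR of at most 0.01 (points, log axis, grey line at 1) across the Elf1 window, by distance in kb from the centre of the first Foxp3 peak. Positions of the 4 Elf1 and Ets1 lists lie on both sides of the 2 Foxp3 peaks, with no stretch as crowded as that of the Fli1-Ets1 window.

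The other positions among the 3 highest scores of a list are given here with their fold enrichment. On chromosome 9 these were Treg Elf1 at 32520136 (12.2-fold), Treg Ets1 at 32505463 (4.66), CD4 Elf1 at 32555397 (7.08), and Treg Cbfb at 32466698 (4.11) and 32533844 (1.12). Around Elf1 they were Treg Elf1 at 79935130 (10.6), CD4 Elf1 at 79941623 (12.9), Treg Ets1 at 79915629 (9.99), CD4 Ets1 at 79915496 (8.77), and Treg Cbfb at 79963565 (18.3) and 79873769 (3.09). None of these lay at a Foxp3 peak, and the Treg and CD4 Ets1 positions of the Elf1 window belonged to 1 site with all 4 ETS lists, 6061 bp from one.

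Positions and peaks were joined into sites wherever neighbours were at most 200 bp apart. The Fli1 and Ets1 window held 243 sites, of which 26 (10.7%) had all 4 ETS lists, and the Elf1 window 77, of which 8 (10.4%) did. Over the genome 1.86% of 370679 sites had all 4. Crowded positions are joined more often, and the windows were selected on ETS positions, so differences from the genome in site make-up are described only. Genome shares at other list lengths were not computed. The counts depended on list length, with 17 and 4 such sites at an FDR of at most 0.001, 14 and 2 with the 20000 highest scores of each library and 6 and 0 with the 10000 highest. A Foxp3 peak was present at 11 of the 26 and 2 of the 8, against 26.8% of all such sites in the genome. The other 15 and 6 had none. Of the 15 on chromosome 9, 13 lay in the dense stretch. Sites with 1 library and no Foxp3 peak made up 56.4% of sites in the chromosome 9 window and 68.8% in the Elf1 window, against 90.1% over the genome. With all 5 libraries there were 4 sites on chromosome 9 and 0 in the Elf1 window, against 0.388% over the genome. Of these 4, 2 held the Foxp3 peaks that start at 32307134 and 32346864. At the other 2, from 32511473 to 32511889 and from 32555349 to 32555435, Cbfb had 4.70-fold and 1.01-fold enrichment.

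Elf1 and Ets1 positions often lay together in both cell types. The windows were selected on ETS positions, and crowding by itself brings more positions within 200 bp of each other. Differences from the list shares are therefore described only, and they were not examined at other list lengths. In the chromosome 9 window Ets1 lay within 200 bp of 47.0% of Treg Elf1 positions (37.7 to 56.5%), against 7.26% over the whole list. In the other direction 43.8% of Treg Ets1 positions had an Elf1 position (35.0 to 52.8%), against 17.8%. In CD4 cells 56.9% of Elf1 positions had an Ets1 position (44.7 to 68.6%), against 27.5%, while 37.3% of Ets1 positions had an Elf1 position (28.2 to 47.0%), against 35.3%. This last share was near the background. In the Elf1 window the same 4 shares were 31.4%, 37.9%, 45.8% and 42.9%, and only for the CD4 Ets1 list (24.5 to 62.8%) and the CD4 Elf1 list (25.6 to 67.2%) did the interval include the list's own share. Cbfb had a Treg Elf1 position beside 8 of its 44 positions on chromosome 9 (18.2%, 8.19 to 32.7%), against 5.14% over its list. It had a Treg Ets1 position beside 8 as well, against 2.97%. In the Elf1 window Treg Elf1 lay beside 2 of 11 Cbfb positions (2.28 to 51.8%) and Treg Ets1 beside 0 of 11 (0 to 28.5%). Both of these intervals included the list's share.

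More ETS positions of the loci recurred in the other cell type than over the lists at the FDR limit, but not at every list length. Over both windows, 53 of 152 Treg Elf1 positions (34.9%) had a CD4 Elf1 position within 200 bp and 53 of 96 CD4 Elf1 positions (55.2%) a Treg one, against 11.4% and 32.5% over the lists. For Ets1, the share was 80 of 157 in Treg (51.0%) and 81 of 138 in CD4 (58.7%), against 18.7% and 27.7%. Crowding in windows selected on ETS positions raises such shares by itself, so the excess is described only. With the 10000 highest scores the difference from the genome was no longer clear. Among the 10000 highest scores, the shares were 53.8% of 26 Treg Elf1 positions (33.4 to 73.4%) against 63.9% over the list, 73.7% of 19 CD4 Elf1 (48.8 to 90.9%) against 63.0%, 42.9% of 63 Treg Ets1 (30.5 to 56.0%) against 46.2%, and 58.7% of 46 CD4 Ets1 (43.2 to 73.0%) against 46.2%. With 20000 the excess returned for Ets1, at 49.5% in Treg (39.3 to 59.7%) against 36.3% and 57.6% in CD4 (46.4 to 68.3%) against 36.7%, and for Treg Elf1, at 65.2% (49.8 to 78.6%) against 48.3%. CD4 Elf1, at 57.7% (43.2 to 71.3%) against 47.6%, did not stand clear of its list.

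Positions without any counterpart within 1 kb, of any FDR, were a smaller share here than over the lists. In windows selected for their many ETS positions a neighbour within 1 kb is likelier in any case, so nothing is read from this difference. In the chromosome 9 window there were 24 of 117 for Treg Elf1, 18 of 72 for CD4 Elf1, 7 of 128 for Treg Ets1 and 8 of 110 for CD4 Ets1. The shares over the lists were 65%, 49.4%, 51.7% and 39.2%. The highest-scoring were Treg Elf1 at 32523654 (7.34-fold, lower bound 2.00) and 32559279 (5.12, 1.92), Treg Ets1 at 32460063 (4.22, 1.43) and 32313934 (5.19, 1.34), CD4 Elf1 at 32317520 (3.76, 1.44) and 32503541 (3.16, 1.16), and CD4 Ets1 at 32416548 (5.10, 1.53) and 32480127 (2.25, 0.630). For 7 of these 8, the nearest position of the other ETS factor in the other cell type, of any FDR, was 33 to 229 bp away. For the Treg Ets1 position at 32460063 the nearest CD4 Elf1 position was 1392 bp away. The share of all positions with such a neighbour was not computed, so nothing is read from this count.

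Unmatched positions of the Elf1 window numbered 6, 5, 3 and 6 in the same order. The highest were Treg Elf1 at 79998343 (2.00-fold) and 79879299 (3.84), CD4 Elf1 at 79990947 (4.31) and 79957915 (4.97), Treg Ets1 at 79900623 (2.44) and 79908348 (5.99), and CD4 Ets1 at 79956024 (4.61) and 79990963 (7.69). At 79990947 and 79990963, 16 bp apart, both CD4 factors were present and the nearest Treg position of either factor was 2429 bp away. None of these positions lay at a Foxp3 peak, the nearest being 13342 bp away.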

How the data were processed

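Chromatin immunoprecipitation of Elf1, Ets1, Cbfb and Foxp3 was read from the deposited lists of binding positions and peaks. Reads were aligned with Bowtie 0.12.7 to mm9, per the submitters' processing notes. Not given in the sources used here are the peak caller, thresholds, control and read depth. The deposited position lists give for each position, per the file headers, a score, a false discovery rate (read as a q-value) and a ratio (fold enrichment) with its lower bound, 1 list per library. The Foxp3 list was made by the authors from combined replicates, per the labels, and holds intervals 200 bp wide. Positions at or under an FDR of 0.01 were counted in the windows, within 200 bp of Foxp3 peaks, and within 200 bp of each other. Intervals are 95% Poisson for counts and Clopper-Pearson for shares, and a chromosome's length was taken as its last listed position. Columns not used numbered 0. The named positions were every Foxp3 peak, the 3 highest scores per list and window, sites with all 5 libraries, and the 2 highest scores per list without a counterpart within 1 kb. The members and lists were chosen with earlier results of these data known. Alternatives were other list lengths, FDR limits, distances, window limits and rankings. Scripts were tested on simulated data and used Python 3.11.15, numpy 2.4.6, pandas 2.3.3, scipy 1.17.1 and matplotlib 3.10.9.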

Additional observations from a re-analysis of the deposited data

How the results depend on the processing

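The 17 and 2 Foxp3 peaks held under all window alternatives. Window density relative to the genome on chromosome 9 was, with an FDR of at most 0.001, 27.9 for Treg Ets1, 23.3 for CD4 Ets1 and 11.5 for CD4 Elf1, and with every deposited position 6.08, 6.03 and 3.94. The 10000 highest scores gave 39.1 for Treg Ets1, 26.5 for CD4 Ets1, 15.2 for Treg Elf1 and 0 for Cbfb, and 20000 gave 29.1, 23.5, 13.2 and 1.32, and 12.9 for CD4 Elf1. Windows 50 kb wider gave 11.2 for Treg Ets1 and 14.1 for CD4 Ets1. In the Elf1 window all deposited positions gave 4.59 for Treg Ets1, 6.63 for CD4 Ets1 and 4.22 for CD4 Elf1, the wider window 5.71 for Treg Ets1, the stricter FDR 12.7 for CD4 Elf1, and the 10000 and 20000 highest scores 5.67 and 3.78 for Cbfb. Of the 19 Foxp3 peaks, 10 had Treg Ets1 and 9 CD4 Elf1 with the 10000 highest scores. Cbfb was at 1 with the stricter FDR, within 100 bp or by distance to the midpoint, and at 0 with the 10000 or 20000 highest scores. Counterpart shares within 100 bp were 33.8% for Treg Ets1, 38.4% for CD4 Ets1, 26.3% for Treg Elf1 and 41.7% for CD4 Elf1, and within 500 bp 70.1%, 72.5%, 50.7% and 66.7%. Every deposited position gave 47.1% for CD4 Ets1, 48.0% for Treg Elf1 and 42.9% for CD4 Elf1. The 10000 highest scores gave 42.9% for Treg Ets1, 53.8% for Treg Elf1 and 73.7% for CD4 Elf1, and with 20000 65.2% for Treg Elf1. The share of a list at or above its highest chromosome 9 position, ranked by fold, was 0.0453% for Treg Ets1, 1.09% for CD4 Elf1, 0.414% for CD4 Ets1 and 1.60% for Cbfb. Ranked by the lower bound it was 0.0696% for Treg Ets1, 0.697% for CD4 Ets1, 0.245% for Treg Elf1, 0.334% for CD4 Elf1 and 1.63% for Cbfb. In the Elf1 window it was, by fold, 5.64% for Treg Elf1, 9.93% for CD4 Elf1, 3.53% for CD4 Ets1 and 13.2% for Cbfb, and by the lower bound 2.66% for Treg Elf1 and 14.2% for Cbfb. Sites with all 4 ETS lists numbered 17 and 4 with the stricter FDR, 6 and 0 with the 10000 and 14 and 2 with the 20000 highest scores. They numbered 44 on chromosome 9 with all deposited positions, and 5 in the Elf1 window within 100 bp. The cause of these shifts was not tested. No paired analysis was possible because each list is 1 library, the Foxp3 replicates are 1 combined list and the inputs were not analysed here, so no replicate could be left out either.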
